A study of Mus musculus with 4 samples.

Results

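The nuclear genes of oxidative phosphorylation (OXPHOS) were described across 4 RNA-sequencing libraries of mouse T cells. They were taken by name: symbols starting with Nduf and a letter a, b, c, s or v with a number, Sdha to Sdhd, and symbols starting with Uqcr, with Cox and a digit from 4 to 8, or with Atp5, leaving out pseudogenes marked as such. The names matched 86 of 37583 features, of which 37 were assigned to complex I, 4 to complex II, 8 to complex III, 19 to complex IV and 18 to complex V. Of these, 76 had at least 20 reads in each inhibitor pair, namely 36, 4, 8, 12 and 16 in the order of the complexes.

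Oxidative phosphorylation is the step of respiration in which electrons from NADH (through complex I) and succinate (through complex II) pass by way of complexes III and IV to oxygen, while protons are pumped across the inner mitochondrial membrane. Complex V, the ATP synthase, lets the protons flow back and makes ATP. Most subunits are encoded in the nucleus and imported, a minority in mitochondrial DNA, and T cells enlarge this machinery when they are activated.

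All 4 libraries came from naive CD4+ T cells, the precursors of helper T cells, sorted by flow cytometry from the spleens of C57BL/6 mice. All cultures received antibodies to CD3 and CD28 bound to the plate, with the cytokine mix that the labels call aTh17 (IL-1β, IL-6, IL-23, anti-IL-4 and anti-IFN-γ). One culture had the inhibitor DMAT at 1.5 µM for 24 h and another the inhibitor CX4945 at 1 µM for 24 h, both directed at the protein kinase CK2, and each had a control library of its own without inhibitor, whose vehicle is not given in the labels. Each group was 1 library, the number of animals is not given, and doses differ, so the inhibitors are given side by side without a comparison. Exon reads numbered 2772525 in the control for DMAT and 2523446 with DMAT, and 2285545 and 2056635 in the CX4945 pair, control first. The 8 T cell markers summed to 2638, 2791, 2665 and 2690 CPM (reads scaled to the size of the library) in that order. The CD8 T and NK markers summed to between 2.36 and 4.88 CPM with 3 of 5 at 0 in every library, the B cell markers to between 0.437 and 1.81 CPM with 2 of 6 at 0, and the myeloid markers to at most 0.787 CPM with 4 of 7 at 0. All 6 erythroid markers had no read.

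None of the 76 OXPHOS genes tested came near a 2-fold difference with either inhibitor. With DMAT 0 of 76 members were at least 2-fold higher or lower, where 1.06% and 1.32% of all genes were, and with CX4945 0 of 76, where 0.855% and 0.93% were. All 76 members were within 1.5-fold in both pairs, a limit that 4.49% of genes passed upwards and 4.9% downwards with DMAT, and 3.89% and 4.34% with CX4945. Between the controls 0 of 76 were past 2-fold (0.962% of genes higher and 1.33% lower) or past 1.5-fold (3.97% and 4.97%). With shares this small, 0 of 76 past 2-fold does not set the members apart. The shares also cover genes of every depth, while the members had a median of 1040.5 reads over the 4 libraries. The SD of the log2 ratios was 0.382 (DMAT) and 0.349 (CX4945) over all genes. Over genes with at least 400 reads it was 0.232 and 0.222. No share past these folds was taken at like depth. Small differences leaned to the higher side in complex I in both pairs, and complex II was higher with DMAT and lower with CX4945.

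As a share of all exon reads, the members took 1.19% in the control for DMAT, 1.24% with DMAT, 1.15% in the control for CX4945 and 1.15% with CX4945. Their summed reads had a log2 ratio of 0.04 with DMAT (95% counting interval 0.02 to 0.06) and of 0.00 with CX4945 (-0.02 to 0.03), while the control for CX4945 stood at -0.05 against the control for DMAT (-0.07 to -0.03). The DMAT difference was thus no larger than that between the controls. In bulk RNA, a different number of cells of a type and a different amount of RNA per cell cannot be told apart. These intervals are exact and cover counting error only. With 1 library a group no difference below has a replicate check of its own.

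**Figure D1:**
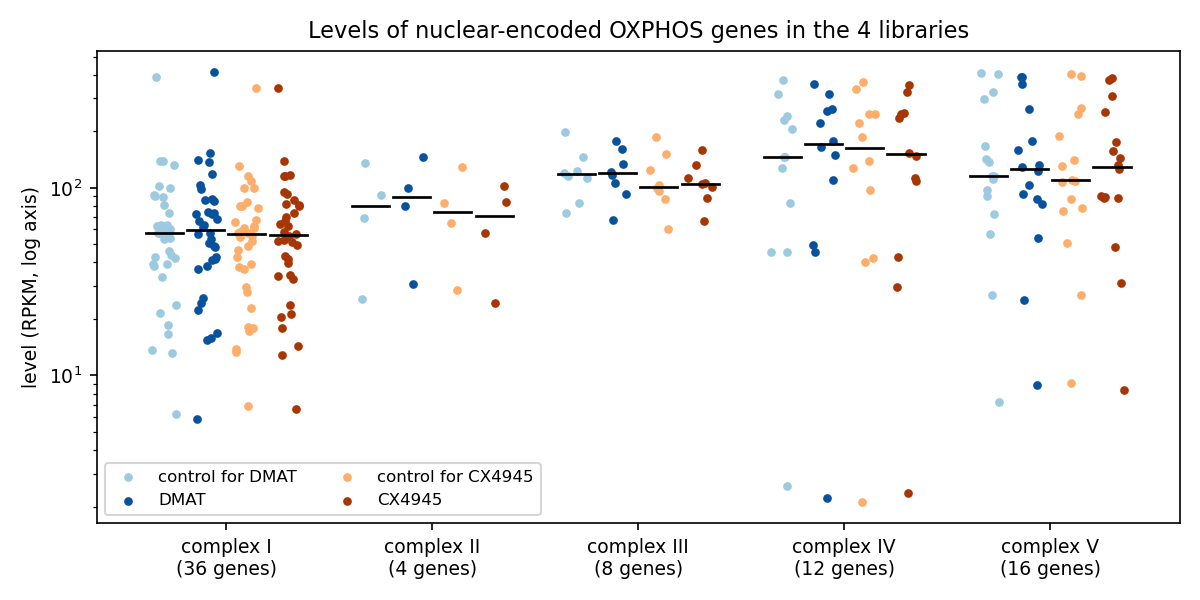
Level of each of the 76 OXPHOS genes in RPKM (CPM per kilobase of exon, log axis) by complex and library, 1 point per gene and a line at the median. The 4 libraries overlap within each complex, while genes of a complex differ widely among themselves, in complex IV from 2.33 (Cox4nb) to 363 (Cox8a) on the mean over libraries.

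Levels per exon length differed more among the members than between libraries. The median over members of the mean RPKM was 57.1 in complex I, 78.6 in complex II, 114 in complex III, 158 in complex IV and 117 in complex V. Highest in complex I was Ndufa4 at 370 RPKM, a small protein now regarded as a subunit of complex IV. In complex II the membrane anchor Sdhd led with 128 RPKM, and in complex III the small subunit Uqcr10 with 180 RPKM. In complex IV Cox8a stood at 363, Cox6b1 at 322 and Cox4i1 at 241 RPKM. The catalytic subunits of the ATP synthase, Atp5b (396 RPKM) and Atp5a1 (390 RPKM), led complex V, followed by the c-ring gene Atp5g2 (315 RPKM). The lowest members were Ndufb2 (6.40 RPKM), Sdhc (27.3), Uqcrq (66.9), Cox4nb (2.33) and Atp5sl (8.41), all of which depend on the exon length in the files. Cox4nb is an older name of Emc8, part of a membrane protein insertion complex, and Atp5sl of Dmac2, so the name rule took in genes that are not subunits.

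Tissue-restricted isoforms of complex IV were at or near 0 reads, and 10 members in all fell under the limit of 20 reads. Ndufa4l2, a relative of Ndufa4 induced by low oxygen, the muscle isoforms Cox6a2 and Cox8b, and Cox7b2 and Cox8c, known from testis, had 0 reads in each library, which at 3 counts allows between 1.09 and 1.46 CPM. Cox4i2, the lung isoform of subunit 4, had 2 and 1 reads in the DMAT pair and 0 and 0 in the CX4945 pair, with each control first, against 139, 178, 169 and 169 CPM for Cox4i1. The testis isoform Cox6b2 had 2, 4, 2 and 1 reads, and the muscle isoform Cox7a1 had 1, 0, 2 and 1. Atp5l2, which RefSeq lists as a pseudogene and of whose reads 0% were unique, had 2, 8, 3 and 8 reads. Atp5s (now Dmac2l, a factor linked to the ATP synthase) had 6, 8, 7 and 7 reads, 14 in each pair, just outside the limit of 20. The members with the fewest reads above the limit were Cox4nb with 63 and 48 reads in the DMAT and CX4945 pairs and Ndufb4, an accessory subunit of complex I, with 126 and 68.

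The names also fix what cannot be separated. Of the 76 members, 14 had less than 50% of their reads counted as unique, 6 of them in complex V, among them Atp5l (13.5%), Atp5g1 (15.7%), Atp5b (26.2%) and Atp5g2 (33.8%), and 33 had only unique reads. Reads of such genes may be shared with near-identical copies, so their values are uncertain.

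Signs of the log2 ratios were compared with those of all genes. With DMAT 49 of 76 members were higher than in the control, where 50% of all genes were. With CX4945 47 of 76 were higher, where 49.4% of all genes were. In the control for CX4945 against that for DMAT 25 of 76 were higher, where 48.7% of genes were, and 51 were lower, where 51.3% were, a lean of like size in the absence of any inhibitor. Higher with both inhibitors were 31 members, where 25.9% of genes were, and 11 were lower with both, where 26.7% were. The remaining members differed in sign, 18 being higher with DMAT but lower with CX4945 (23.9% of genes), and 16 the other way round (23.5%). The median log2 ratio of the members was 0.09 with DMAT, 0.04 with CX4945 and -0.06 between the controls, against 0.00, 0.00 and -0.01 over all genes. Across the 76 genes, the log2 ratios with the 2 inhibitors had Pearson's r = 0.03 and Spearman's rho = 0.02, a description over genes that share the libraries.

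The 95% counting interval of the ratio lay above 1 for 14 of 76 members with DMAT, where it did for 9% of all genes, and below 1 for 1, where it did for 9.89%. With CX4945 it lay above 1 for 5, where it did for 7.06% of genes, and below 1 for 6, where it did for 7.75%. Between the controls it lay above 1 for 4 (8.87% of genes) and below 1 for 10 (9.77%). Among the 69 members with at least 400 reads over the 4 libraries the DMAT counts were 13 above and 1 below, against 10.9% and 12.6% of such genes. For CX4945 they were 5 and 6, against 8.92% and 10.2%, and between the controls 4 and 10, against 12% and 12.4%.

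**Figure D2:**
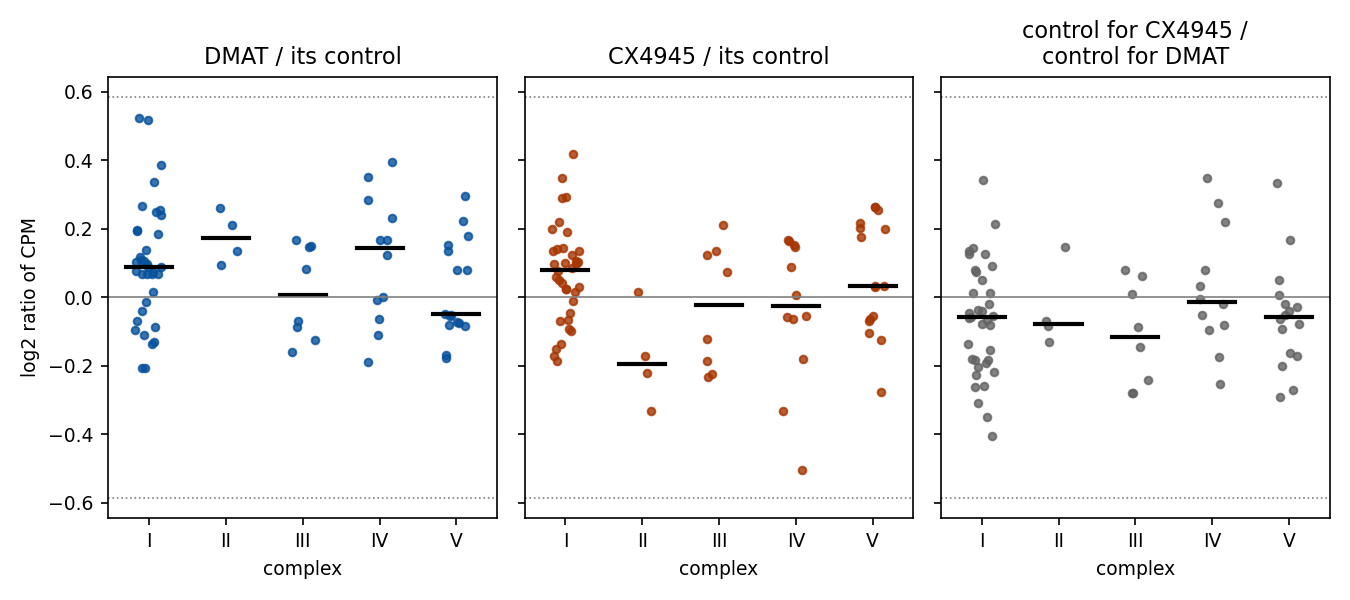
Log2 ratio of CPM of the 76 OXPHOS genes by complex for DMAT over its control, CX4945 over its control, and the control for CX4945 over that for DMAT; points are genes, black lines medians and dotted lines a 1.5-fold ratio. All points lie within 1.5-fold, and the complex II median is 0.17 with DMAT and -0.20 with CX4945.

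Both experiments were fitted together over 9745 genes, with the experiment as a block, which asks for a difference common to both inhibitors. In edgeR's quasi-likelihood test, 0 of 76 members rose and 0 fell at a Benjamini-Hochberg adjusted p under 0.05, where 0.174% of all genes rose and 0.369% fell. At an unadjusted p under 0.05 there were 3 members higher, where 2.91% of genes were, and 0 lower, where 4.26% were. DESeq2 with the same block gave 0 members under either limit. Fits without the block and with 1 library left out gave median member log2 fold changes of 0.08 without the control for DMAT and -0.01 without DMAT. They were 0.02 without the control for CX4945 and 0.11 without CX4945. With all 4 libraries and no block, edgeR gave 0 members at an unadjusted p under 0.05. With the block, these p-values rest on how far the differences with DMAT and with CX4945 lie apart, as each group had 1 library. That scatter mixes inhibitor, dose and technical differences and is not scatter between replicates. Without the block, differences between the experiments enter too. The labels do not say that the cultures came from separate animals.

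In complex I, the NADH dehydrogenase, 26 of 36 members were higher in each pair, where 50% (DMAT) and 49.4% (CX4945) of all genes were, and 12 of 36 between the controls, where 48.7% were. Summed reads had a log2 ratio of 0.10 with DMAT (0.05 to 0.14), 0.07 with CX4945 (0.02 to 0.12) and -0.06 between the controls (-0.11 to -0.02). Higher with both inhibitors were 18 members (25.9% of all genes were) and lower with both were 2, Ndufs3 and Ndufb2 (26.7% of genes). Another 8 were higher with DMAT alone (23.9% of genes) and 8 with CX4945 alone (23.5%). With unique reads Ndufs3 was higher with DMAT (log2 0.07), and Ndufb2 with DMAT (0.12) and with CX4945 (0.16). The control library for CX4945 moved with this result, since it was low in most complex I members, and set against the control for DMAT the CX4945 library had a summed log2 ratio of 0.00 and 15 of 36 members higher. Its part in the CX4945 result was not tested.

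The accessory subunit Ndufa7 stood at 57.2 CPM in the control and 82.6 with DMAT, and at 47.7 and 58.6 CPM in the CX4945 pair. It had the highest log2 ratio of complex I with DMAT (0.52, also that of Ndufb4 to 2 decimals), with a ratio of 1.44 (1.17 to 1.79), and its CX4945 ratio of 1.23 had an interval that included 1 (0.941 to 1.61). In the joint fit its log2 fold change was 0.43 (SE 0.15, unadjusted p = 0.0123, adjusted p = 0.439 by edgeR). Ndufa10, another accessory subunit, stood at 131 and 166 CPM in the DMAT pair and at 138 and 152 CPM in the CX4945 pair, with a DMAT ratio of 1.26 (1.10 to 1.46) and an edgeR adjusted p of 0.662. Both inhibitor libraries were above their controls for both genes, and for Ndufa7 the CX4945 library was level with the control for DMAT. Ndufa12, an accessory subunit that joins the complex late in its assembly, was highest with CX4945, at 84.7 and 88.9 CPM in the DMAT pair and 81.3 and 109 CPM in the CX4945 pair, a ratio of 1.34 (1.10 to 1.64). It had 47.1% unique reads. The accessory subunit Ndufb9 stood at 90.5, 89.7 and 90.3 CPM in the control for DMAT, DMAT and CX4945 libraries and at 70.8 CPM in the control for CX4945. Its CX4945 log2 ratio of 0.35 was matched by -0.35 between the controls, so the 1 low library was a control.

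Core subunits that carry the flavin and the iron-sulfur clusters showed no common direction. The flavin-bearing Ndufv1 stood at 107 and 129 CPM in the DMAT pair and 124 and 129 CPM in the CX4945 pair, and Ndufv2 had log2 ratios of 0.25 and 0.10. Among iron-sulfur subunits, the log2 ratios were 0.07 and -0.15 for Ndufs1, -0.21 and -0.10 for Ndufs3, -0.04 and 0.10 for Ndufs7, and -0.11 and 0.08 for Ndufs8, with DMAT given first. The lowest with DMAT were Ndufs3 and the accessory Ndufb11 (log2 -0.21 each), but Ndufs3 turned to 0.07 with unique reads and Ndufb11 to 0.10 against the control for CX4945, and the lowest with CX4945 was Ndufa2 (log2 -0.19).

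Complex II, succinate dehydrogenase, is also an enzyme of the TCA cycle and is encoded only in the nucleus. All 4 genes were higher with DMAT, where 50% of all genes were, and 3 of 4 lower with CX4945, where 50.6% were. Summed reads had a ratio of 1.11 with DMAT (1.05 to 1.18) and of 0.917 with CX4945 (0.853 to 0.986), and between the controls their log2 ratio was -0.07 (-0.17 to 0.02). The share of complex II in the OXPHOS reads was 6.41% in the control for DMAT, 6.94% with DMAT, 6.30% in the control for CX4945 and 5.77% with CX4945. The libraries with inhibitor thus stood on either side of both controls, and no test over replicates can be had for this. All reads of the 4 genes were unique.

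The flavoprotein Sdha, which binds succinate, stood at 353 and 388 CPM in the DMAT pair and 323 and 327 CPM in the CX4945 pair. The iron-sulfur subunit Sdhb stood at 154 and 178 CPM, and at 145 and 129 CPM. The membrane anchor Sdhc stood at 83.3 and 99.9 CPM, and at 92.2 and 79.1 CPM. The second anchor, Sdhd, had 175 and 187 CPM in the DMAT pair and 167 and 132 CPM in the CX4945 pair, a CX4945 ratio of 0.794 (0.677 to 0.931), while its DMAT ratio of 1.07 had an interval that included 1 (0.939 to 1.22). DMAT was the highest of the 4 libraries for each gene, and CX4945 the lowest for all but Sdha. In mm9, the build of the files, Sdha lies at chr13:74459702-74487728, Sdhb at chr4:140517118-140535108, Sdhc at chr1:173057296-173080734 and Sdhd at chr9:50404443-50411954. In the joint edgeR fit the largest of the 4 log2 fold changes in size was that of Sdhd (-0.10, SE 0.12, adjusted p = 0.931).

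**Figure D3:**
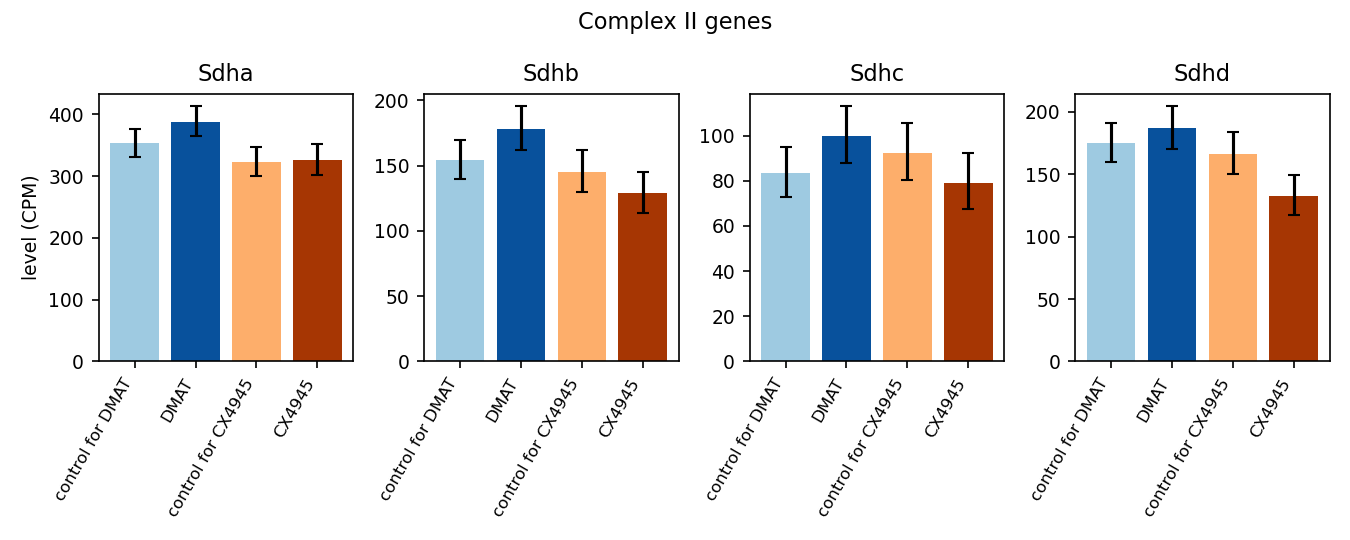
Level of each complex II gene in CPM (bars from 0) in the 4 libraries, with exact 95% counting intervals. DMAT is the highest library for each gene, and for Sdhd the CX4945 library, at 132 CPM, lies below the other 3, of which the lowest is 167 CPM.

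Nuclear OXPHOS promoters are known to hold sites for the factors NRF1, GABP (of the ETS family), SP1 and YY1. RefSeq promoters (GRCm38.p6, 250 bases before and 50 after the gene start) were found for 69 of 86 members, Sdhc not among them. They are shown for Sdha, Sdhb and Sdhd, genes of the complex that stood on either side of the controls, and for Ndufa10, which was higher with both inhibitors, each 5′ to 3′ on the gene's strand, with matches on either strand in capitals. The stretches are chr13:74350191-74350490 (minus strand) for Sdha, chr4:140961021-140961320 (plus) for Sdhb, chr9:50603800-50604099 (minus) for Sdhd and chr1:92473709-92474008 (minus) for Ndufa10.
Sdha: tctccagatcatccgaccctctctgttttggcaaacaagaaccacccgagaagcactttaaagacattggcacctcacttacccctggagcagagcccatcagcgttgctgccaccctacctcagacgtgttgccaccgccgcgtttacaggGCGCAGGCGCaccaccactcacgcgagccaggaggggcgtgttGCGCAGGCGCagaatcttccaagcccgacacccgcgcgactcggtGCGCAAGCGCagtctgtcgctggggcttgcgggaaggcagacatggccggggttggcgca
Sdhb: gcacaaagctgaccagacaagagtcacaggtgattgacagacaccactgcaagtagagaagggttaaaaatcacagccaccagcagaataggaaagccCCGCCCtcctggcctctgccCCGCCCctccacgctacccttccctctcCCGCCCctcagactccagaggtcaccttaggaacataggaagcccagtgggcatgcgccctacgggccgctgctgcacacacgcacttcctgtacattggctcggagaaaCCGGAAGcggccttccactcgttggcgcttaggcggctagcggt
Sdhd: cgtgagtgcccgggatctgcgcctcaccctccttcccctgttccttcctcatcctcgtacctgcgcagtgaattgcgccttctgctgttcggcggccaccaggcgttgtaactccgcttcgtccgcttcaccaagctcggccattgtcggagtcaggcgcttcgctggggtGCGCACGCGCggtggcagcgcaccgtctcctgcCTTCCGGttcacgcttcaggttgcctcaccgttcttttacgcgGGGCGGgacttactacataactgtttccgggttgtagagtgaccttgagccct
Ndufa10: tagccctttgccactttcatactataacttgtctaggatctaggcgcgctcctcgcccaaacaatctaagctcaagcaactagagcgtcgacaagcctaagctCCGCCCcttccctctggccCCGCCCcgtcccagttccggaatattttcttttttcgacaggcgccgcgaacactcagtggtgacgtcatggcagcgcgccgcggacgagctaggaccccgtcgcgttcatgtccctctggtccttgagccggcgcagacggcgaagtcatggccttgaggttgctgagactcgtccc
Sdha has 3 matches to the NRF1 motif, Sdhb has 1 ETS and 3 SP1 matches, Sdhd has 1 of each of these, and Ndufa10 has 2 SP1 matches. The genes shown all hold a motif, but 20 of the 69 members hold none. Ndufa7, also higher with both inhibitors, is among those without a motif. Shares were taken over genes, a gene being counted where any of its promoters matched. The core motif of NRF1 was in 24.6% of the 69 members and 5.19% of all 27025 genes with a promoter. The ETS letters CCGGAAG were in 23.2% and 9.93%, the SP1 letters GGGCGG in 40.6% and 38.2%, and the YY1 motif in 7.25% and 0.755%. None of the motifs contains another. A match describes these letters alone.

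Complex III takes electrons from ubiquinol to cytochrome c. In it 4 of 8 members were higher in each pair, where 50% (DMAT) and 49.4% (CX4945) of all genes were. The cytochrome c1 subunit Cyc1 falls outside the name rule and is in neither this count nor the sums. Its log2 ratios were -0.05 with DMAT, -0.17 with CX4945 and 0.11 between the controls. Summed reads had log2 ratios of 0.01 with DMAT (-0.06 to 0.08), -0.07 with CX4945 (-0.15 to 0.01) and -0.12 between the controls (-0.19 to -0.04), so the controls differed most. The core protein Uqcrc1 stood at 240 and 266 CPM in the DMAT pair and 250 and 220 CPM in the CX4945 pair, a CX4945 ratio of 0.879 (0.775 to 0.996). The Rieske iron-sulfur protein Uqcrfs1 stood at 168 and 160 CPM, and at 169 and 144 CPM, a CX4945 ratio of 0.851 (0.729 to 0.993). CX4945 was the lowest library for both. The log2 ratios of the core protein Uqcrc2 were -0.09 with DMAT and -0.12 with CX4945, with -0.24 between the controls. Of the small subunits, Uqcr11 was highest in both pairs (log2 0.17 with DMAT and 0.21 with CX4945) and Uqcr10 lowest with DMAT (log2 -0.16, and -0.22 with CX4945).

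Complex IV is cytochrome c oxidase. Of its 12 members tested, 8 were higher with DMAT and 6 with CX4945, where 50% and 49.4% of all genes were. Summed reads had log2 ratios of 0.13 with DMAT (0.07 to 0.19), -0.02 with CX4945 (-0.09 to 0.05) and 0.04 between the controls (-0.03 to 0.10). Cox7a2l, a relative of Cox7a2, stood at 95.6 and 126 CPM in the DMAT pair and 111 and 125 CPM in the CX4945 pair. Its DMAT ratio was 1.32 (1.12 to 1.56). Its joint log2 fold change was 0.28 (SE 0.12, unadjusted p = 0.032, adjusted p = 0.602 by edgeR), and 39.3% of its reads were unique. Cox4i1, the ubiquitous isoform of subunit 4, stood at 139 CPM in the control for DMAT and at 178, 169 and 169 CPM in the others, so that the low library was that control, and its log2 ratio between the controls was 0.27. The structural subunits Cox7a2 (110, 135, 104 and 116 CPM in the same order) and Cox5a (158, 178, 153 and 171 CPM) were higher in both inhibitor libraries than in their controls, with edgeR unadjusted p of 0.0776 and 0.121.

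With CX4945 the lowest member was Cox7c, a small structural subunit, at 51.4 and 51.1 CPM in the DMAT pair and 48.1 and 33.7 CPM in the CX4945 pair, a ratio of 0.701 (0.511 to 0.955). It had 35.3% unique reads. Cox5b, the zinc-binding subunit, stood at 82.6 and 92.9 CPM, and at 105 and 83.5 CPM, with CX4945 log2 -0.33 beside 0.35 between the controls. Its CX4945 value was thus close to the control for DMAT. Of Cox5b reads 41.2% were unique. With unique reads its log2 ratio was -0.22 with DMAT and -0.35 with CX4945, where the interval included 0 (-0.84 to 0.11). The log2 ratios of the abundant subunits were 0.00 and -0.05 for Cox6b1, -0.11 and -0.06 for Cox6a1, and -0.06 and -0.06 for Cox8a, with DMAT given first. The lowest with DMAT was Cox4nb (log2 -0.19, and 0.07 against the control for CX4945), which is no subunit.

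Complex V took the largest share of the OXPHOS reads, at 47.5% in the control for DMAT, 45.5% with DMAT, 47.5% in the control for CX4945 and 47.6% with CX4945. Atp5a1 and Atp5b, the α and β subunits of the F1 head, held between 51.2% and 53.5% of complex V reads. Atp5a1 stood at 1264 and 1217 CPM in the DMAT pair and 1228 and 1182 CPM in the CX4945 pair, and Atp5b at 1731 and 1645 CPM, and 1706 and 1633 CPM. Both were slightly lower in each inhibitor library, and the interval of the ratio of Atp5b with DMAT lay below 1 (0.911 to 0.991). Only 26.2% of Atp5b reads were unique, and with unique reads its DMAT log2 interval included 0 (-0.20 to 0.04). Summed reads had log2 ratios of -0.02 with DMAT (-0.05 to 0.01), 0.01 with CX4945 (-0.03 to 0.04) and -0.05 between the controls (-0.08 to -0.02). Without Atp5a1 and Atp5b, chosen after their values were seen, they were 0.03 with DMAT and 0.08 with CX4945, and the DMAT interval included 0 with and without them.

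The other F1 subunits were higher in both pairs. Atp5d, the δ subunit, stood at 224 and 236 CPM in the DMAT pair and 212 and 255 CPM in the CX4945 pair, a CX4945 ratio of 1.20 (1.06 to 1.36), and Atp5e, the ε subunit, at 128 and 145 CPM, and 132 and 159 CPM, with an edgeR unadjusted p of 0.0598. The γ subunit Atp5c1 had log2 ratios of 0.15 and 0.03. The 3 genes of the c-ring, which encode the same mature protein, did not share a direction, with log2 ratios of -0.08 and 0.20 for Atp5g1, 0.13 and 0.22 for Atp5g2, and 0.08 and -0.10 for Atp5g3. Atp5g2 had 33.8% unique reads, and with unique reads its log2 ratio was -0.06 with DMAT and 0.45 (0.10 to 0.82) with CX4945. The subunit f gene Atp5j2 stood at 137 and 160 CPM in the DMAT pair and 132 and 109 CPM in the CX4945 pair, with ratios of 1.17 (1.01 to 1.35) and 0.825 (0.690 to 0.984). It was highest with DMAT and lowest with CX4945 of the 4 libraries. The highest with DMAT was Atp5sl (log2 0.30, and -0.04 against the control for CX4945). The lowest was Atp5l, subunit g (log2 -0.18, 13.5% unique reads), which turned to 0.23 with unique reads and to 0.10 against the control for CX4945.

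**Figure D4:**
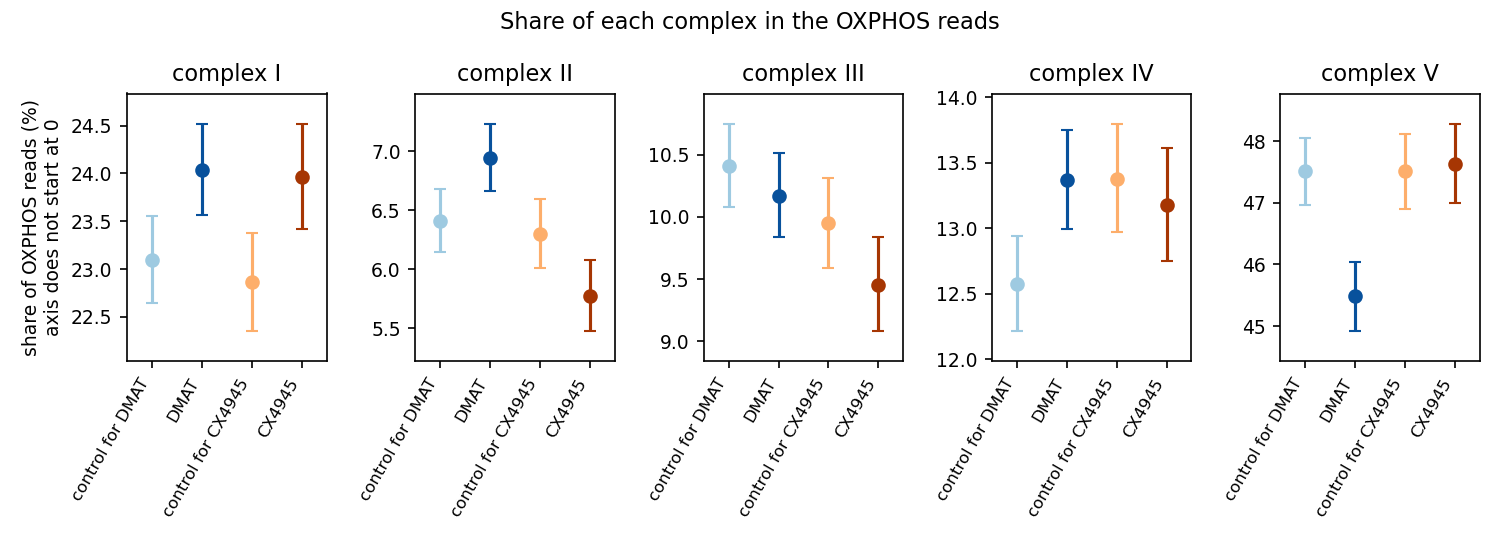
Share of each complex in the OXPHOS reads (percent, axes not starting at 0) in the 4 libraries with exact 95% binomial intervals. Complex I is higher in both inhibitor libraries (24.0% each) than in their controls (23.1% and 22.9%), complex II is highest with DMAT and lowest with CX4945, and complex V is lowest with DMAT.

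**Figure D5:**
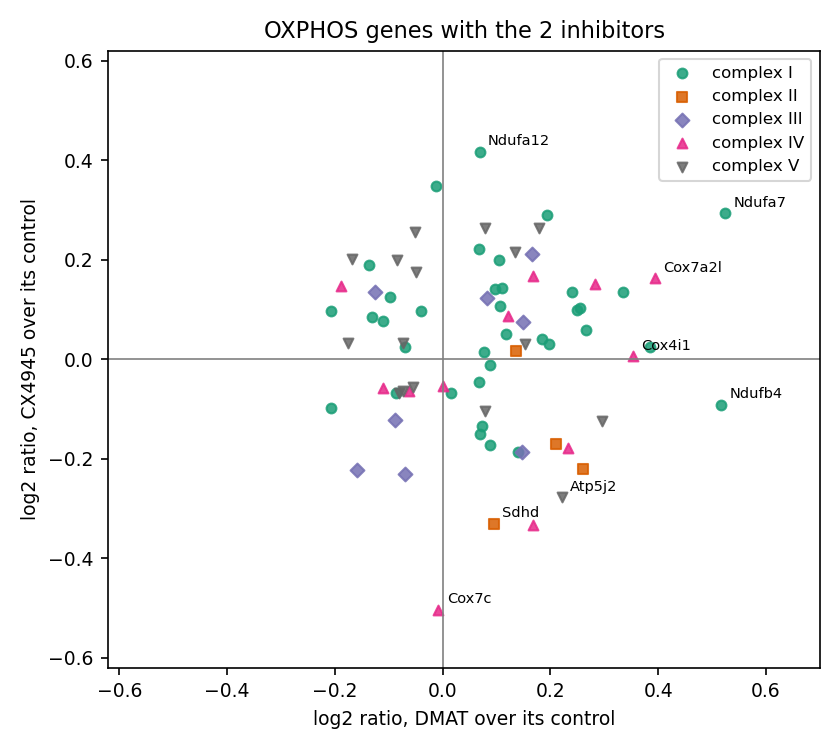
Log2 ratio with CX4945 (vertical) against that with DMAT (horizontal) for the 76 OXPHOS genes, marked by complex. The points do not follow a line (Pearson's r = 0.03 across genes), Ndufa7 lies highest on the DMAT axis and Cox7c lowest on the CX4945 axis.

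Other genes of the pathway were taken from lists chosen with earlier results known, and in each of these lists 0 genes rose and 0 fell in the joint edgeR fit. The 29 assembly factors tested build the complexes without staying in them. With CX4945 24 of them were lower, where 50.6% of all genes were, and with DMAT 12, where 50% were. Their median log2 ratio was -0.30 with CX4945, 0.12 with DMAT and 0.02 between the controls. Ttc19, which takes part in complex III assembly, stood at 32.2 and 17.3 CPM in the DMAT pair and 21.9 and 16.6 CPM in the CX4945 pair (joint log2 fold change -0.67, edgeR unadjusted p = 0.0183, adjusted p = 0.492). Cox16, a complex IV assembly factor with less than 50% unique reads, had 50.3 and 37.8 CPM, and 44.2 and 31.7 CPM, with an edgeR adjusted p of 0.547. Both were lower with each inhibitor. Taco1, an activator of the translation of a mitochondrially encoded complex IV subunit, had 58, 60, 54 and 23 reads, so that the CX4945 library alone was low. The highest joint value in the list was that of the ATP synthase assembly factor Atpaf1 (log2 0.12).

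Among 13 electron carriers and OXPHOS proteins outside the name rule the median log2 ratio was 0.06 with DMAT, -0.16 with CX4945 and also -0.16 between the controls. Cycs, cytochrome c, stood at 362 and 316 CPM in the DMAT pair and 324 and 284 CPM in the CX4945 pair, with 21.0% unique reads and an edgeR adjusted p of 0.658. Ndufab1, the acyl carrier protein that is also a complex I subunit, had log2 ratios of 0.26 in both pairs and the highest joint value (0.26), and Coq7, an enzyme of ubiquinone synthesis, the lowest (-0.35). Of 17 TCA cycle and pyruvate dehydrogenase genes, 12 were lower with CX4945 and 8 with DMAT, where 50.6% and 50% of all genes were. Their medians were -0.09 and 0.00. The pyruvate dehydrogenase genes Pdha1, Pdhb and Dlat, which are not of the TCA cycle itself, were lower in both pairs and are in these counts. Idh2, the mitochondrial NADP isocitrate dehydrogenase, had the highest joint log2 fold change (0.30) and stood at 56.9 and 75.1 CPM in the DMAT pair, while the succinate-CoA ligase subunit Suclg1 had the lowest (-0.22). The 9 mitochondrial carriers and pores had a median of -0.03 with DMAT and of -0.19 with CX4945, with joint log2 fold changes between -0.31 (Slc25a11, the oxoglutarate carrier) and 0.11 (Slc25a4, an ADP/ATP carrier). Of 12 regulators of mitochondrial biogenesis 7 were higher with DMAT and 5 with CX4945, where 50% and 49.4% of all genes were. Their medians were 0.05 and -0.03, and the coactivator gene Ppargc1a had no read. The values of Nrf1 were 0.07 and -0.31, those of the mitochondrial DNA packaging factor Tfam 0.04 and 0.02, as log2 ratios with DMAT given first. Joint log2 fold changes in this list lay between -0.19 (Gabpa, the DNA-binding subunit of GABP) and 0.34 (Tfb1m, a mitochondrial rRNA methyltransferase, SE 0.34). Tfb1m had few reads, 41 and 36 in the DMAT pair and 17 and 29 in the CX4945 pair, control first. Its log2 ratios were -0.06 with DMAT, 0.86 with CX4945 and -0.92 between the controls, so the low library was the control for CX4945.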

How the data were processed

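RNA was sequenced from 4 cultures. Per the labels' protocols it was total RNA made into libraries with a TruSeq RNA kit, and the submitters' processing notes name CASAVA 1.8.2 and the mouse build mm9. The aligner, annotation, counting rule and strand are not given in the sources used here. The unit was the count of total exon reads per gene, made and deposited by the authors without normalization, which includes reads that map to more than 1 place, and the deposited count of unique exon reads was an alternative.

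Members and gene lists were chosen with earlier results of these data known. Counts were scaled with TMM (edgeR 4.0.16, R 4.3.3), and log2 ratios of CPM used a prior count of 2. Genes were kept in a pair from 20 reads upwards. RPKM was computed from the counts and the exon lengths in the files. Ratios were given exact conditional (Clopper-Pearson) 95% intervals, without the prior count. They cover counting error only, since each group was 1 library. PCR reads are not independent molecules, so the intervals may be too narrow even for that. The log2 value of a gene and its ratio can differ slightly, as only the log2 value used the prior count.

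All 4 libraries were fitted by edgeR's quasi-likelihood test with the experiment as a block and Benjamini-Hochberg adjustment over 9745 genes, and by DESeq2 1.42.0 as an alternative. The SE is the absolute log2 fold change over the square root of F. The pairing comes from the titles, and the differences between the experiments in control and in inhibitor libraries had Pearson's r = 0.487 across 5088 genes. The scripts were tested on simulated data. Alternatives were other scalings, read units, filters and prior counts, the other inhibitor's control, no block, and each library left out. Named genes were, per complex, the highest and lowest member in each pair, core subunits, isoforms, the 3 of highest RPKM and the 10 members of smallest p, and in other lists the highest and lowest joint value. Ndufb9, Atp5j2, Taco1, Cox16, Cycs, Cyc1, Pdha1, Pdhb, Dlat, Nrf1, Tfam and Ndufb2 as a member lower in both pairs were named after their values were seen. One result for a single member is not reported here.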

Additional observations from a re-analysis of the deposited data

Results flagged for a closer look

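The summed reads of complex II had a log2 ratio of 0.157 with DMAT and -0.125 with CX4945, opposite directions in the 2 experiments with both counting intervals away from 0. For Atp5j2, subunit f of the ATP synthase, the log2 ratio was 0.222 with DMAT and -0.276 with CX4945, again opposite with both intervals excluding no difference. In neither case was the difference between the experiments tested, as each group had 1 library and the doses differed.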

How the results depend on the processing

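The count of 0 members past the threshold in the joint edgeR fit was also 0 under each scaling, filter and read unit tried, in DESeq2, and with each library left out (0 to 0), although the number of genes called overall went from 53 to 87 with DESeq2 size factors, 109 with total-read scaling, 83 with unique reads, 4 with at least 100 reads, 1 with no replicate block, 3 in DESeq2, and 1, 133, 1 and 151 without the control for DMAT, DMAT, the control for CX4945 and CX4945. With no replicate block 0 members were called. The smallest member adjusted p was 0.439, and 0.298 to 1 under the alternatives, except 0.0624 without the CX4945 library. The fits without a library also drop the block, and the like fit of all 4 libraries gave 1.

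Set against the other inhibitor's control, the members higher with CX4945 went from 47 to 30, and complex I members from 26 to 15. The summed log2 ratio became 0.163 (DMAT) and 0.00458 (CX4945) in complex I, 0.123 and -0.187 in complex III, and 0.0283 and -0.0447 in complex V. Under that control 27 of 76 member log2 ratios changed sign with CX4945 and 23 of 76 with DMAT. Among those whose counting interval had excluded no difference these were Atp5g2 (-0.0740), Cox5b (0.0159) and Ndufb9 (-0.00329), all with CX4945. Without Atp5a1 and Atp5b, an alternative chosen after seeing the data, complex V had 0.0266 (DMAT) and 0.0765 (CX4945). With at least 100 reads, which leaves fewer genes, 15 of 18 assembly factors were lower with CX4945, against 24 of 29. Unique reads moved 8 values of single members beyond their counting interval and turned the sign of 10 of 76 with DMAT and 6 of 75 with CX4945. For the changes with the other control and with unique reads the cause was not tested.

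With 1 library a group, counting intervals are the only error per pair, and genes near 20 reads allow no small difference to be seen.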
